A study of Mus musculus with 4 samples.

Results

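Promoters of long noncoding RNA (lncRNA) genes were examined in maps of open chromatin from posterior forelimb buds. A promoter window ran from 2000 bp upstream of an annotated transcription start site (TSS) to 1000 bp downstream of it. Windows were kept where GENCODE M21 (basic set, mm10) types the gene as lincRNA, antisense, processed_transcript, sense_intronic, bidirectional_promoter_lncRNA or macro_lncRNA and the TSS lies more than 3 kb from every protein-coding TSS. This left 9228 windows of 8018 genes, out of 77221 TSS windows of 55413 genes in the annotation. By type there were 6069 lincRNA windows, 2119 antisense, 738 processed_transcript, 294 sense_intronic, 7 bidirectional_promoter_lncRNA and 1 macro_lncRNA. Neighbouring windows overlapped, so that the 9228 windows covered 8085 separate stretches of the genome. Another 2578 lncRNA windows lay within 3 kb of a coding TSS and were used, with the 41525 protein-coding windows, for comparison. Of the 9228 windows, 468 (5.07%) lie within 3 kb of a coding TSS that the comprehensive annotation holds and the basic set does not, and 83 carry a symbol that RefSeq types as protein-coding.

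The assay was ATAC-seq. It uses a transposase, Tn5, that inserts sequencing adapters where DNA is not packed into nucleosomes. The 4 libraries came from the posterior part of forelimb buds of mouse embryos at E10.5 (35 somites), all on the Swiss Webster background. There were 2 wild-type (WT) libraries and 2 Shh-/- libraries, the latter from embryos homozygous for the Shh tm1amc null allele and thus without the Sonic hedgehog ligand. Each library was made from the limb buds of a single embryo, so each replicate is 1 animal. The gene is lost in the whole embryo and not in the limb alone. Fewer cells with an open site and a less open site per cell cannot be told apart in such bulk libraries.

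lncRNA genes are transcribed by RNA polymerase II and often spliced, yet their RNAs encode no known protein. Their promoters use the same general machinery as those of coding genes, but most lncRNAs are made at low levels and in few cell types, and fewer of their promoters lie in CpG islands. Some lncRNAs act in the nucleus on the chromatin around them, as Xist and Kcnq1ot1 do, and others serve as precursors from which microRNAs or small nucleolar RNAs (snoRNAs) are cut. In the limb bud, lncRNAs made from the Hox clusters and from the surroundings of patterning genes such as Hand2 have been studied for roles in patterning.

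The core sequences of 5 promoters are shown because each stands for a class described below: a microRNA host, a mesenchymal microRNA host, a snoRNA host, a promoter called in WT libraries and a promoter near the limb gene Msx1. Each runs from 250 bp upstream of the TSS to 50 bp downstream of it, 5′ to 3′ along the gene's strand, and was read from RefSeq assembly GRCm38.p6. Capitals mark matches on either strand to the TATA box letters TATAAA, to the letters CCAAT of the box of that name, or to GGGCGG, the GC box.
Mir22hg, chr11:75461289-75461588, plus strand: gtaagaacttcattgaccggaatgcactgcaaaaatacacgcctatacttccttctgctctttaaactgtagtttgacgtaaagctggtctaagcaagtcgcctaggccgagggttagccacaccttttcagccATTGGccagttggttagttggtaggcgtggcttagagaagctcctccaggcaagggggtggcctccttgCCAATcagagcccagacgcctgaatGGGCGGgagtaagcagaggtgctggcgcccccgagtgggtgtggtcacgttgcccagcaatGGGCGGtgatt
Dnm3os, chr1:162217373-162217672, plus strand: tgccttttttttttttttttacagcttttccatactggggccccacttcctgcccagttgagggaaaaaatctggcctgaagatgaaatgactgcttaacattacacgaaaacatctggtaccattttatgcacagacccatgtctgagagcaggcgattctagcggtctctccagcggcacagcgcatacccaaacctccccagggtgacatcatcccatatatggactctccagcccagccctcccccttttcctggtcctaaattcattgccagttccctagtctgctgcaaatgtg
Snhg8, chr3:123508284-123508583, minus strand: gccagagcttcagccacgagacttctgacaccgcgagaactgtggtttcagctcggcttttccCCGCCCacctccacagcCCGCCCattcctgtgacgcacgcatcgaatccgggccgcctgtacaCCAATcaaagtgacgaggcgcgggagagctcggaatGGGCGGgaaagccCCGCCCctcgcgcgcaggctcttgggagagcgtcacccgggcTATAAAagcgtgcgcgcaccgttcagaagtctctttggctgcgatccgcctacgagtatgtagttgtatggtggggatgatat
Kcnq1ot1, chr7:143296500-143296799, minus strand: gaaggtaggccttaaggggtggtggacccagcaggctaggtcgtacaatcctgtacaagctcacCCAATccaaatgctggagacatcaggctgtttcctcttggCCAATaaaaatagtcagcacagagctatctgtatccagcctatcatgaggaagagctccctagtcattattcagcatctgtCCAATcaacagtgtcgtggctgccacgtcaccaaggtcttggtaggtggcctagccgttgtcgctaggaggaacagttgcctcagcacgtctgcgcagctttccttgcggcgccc
Gm20052, chr5:37893522-37893821, plus strand: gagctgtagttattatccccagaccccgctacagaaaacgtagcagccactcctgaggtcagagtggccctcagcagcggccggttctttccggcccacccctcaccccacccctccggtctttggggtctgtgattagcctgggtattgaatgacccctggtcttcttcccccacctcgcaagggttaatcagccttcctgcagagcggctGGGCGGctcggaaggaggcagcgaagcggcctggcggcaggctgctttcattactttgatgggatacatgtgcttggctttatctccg

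The promoters of Mir22hg and Snhg8 carried GC boxes, 2 in the former and 4 in the latter. The Snhg8 core also held a TATA box and 29 CpG dinucleotides in 300 bp. The Dnm3os core had none of the 3 motifs and 5 CpG dinucleotides. The Gm20052 core held 1 GC box and 14 CpG dinucleotides, with a GC content of 59.3%. A match in these letters is a description of the sequence and not a measured binding site.

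The peak lists were of unequal length, and this touches every share given below. WT replicate 1 had 39080 peaks, WT replicate 2 had 11973, Shh-/- replicate 1 had 5589 and Shh-/- replicate 2 had 18459. A window with no peak was not called in that library, which does not show that its chromatin was closed. Comparisons were therefore repeated after every list had been shortened to the 5589 peaks with its best scores (equal list size). Where 4 values stand in a row without names, they are those of WT replicates 1 and 2 and then Shh-/- replicates 1 and 2. Shh-/- replicate 1 also stood apart at equal size, with 17.2% of protein-coding windows called against 25.2% to 25.6% in the others. The Shh promoter window was called in 0 of 4 libraries, and the Shh gene body held 2 peaks in WT replicate 1 and 2 in Shh-/- replicate 2, so the lists do not check the genotype labels. Promoters of 5 limb mesenchyme markers were called for 5, 3, 2 and 4 genes in the same order of libraries, with Prrx1 called in each. Of 5 limb ectoderm markers, 1 was called in Shh-/- replicate 2 (Epcam) and 0 in the others. Of 4 endothelial markers 0 to 1 were called per library, of 4 blood markers 0 to 2, and of 4 muscle progenitor markers 0 to 3. The part of these other cells in the results was not tested.

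lncRNA promoters were seldom called. A peak was found in 1087 of the 9228 windows in WT replicate 1 (11.8%, 95% Wilson interval 11.1 to 12.5), where 37.9% of all TSS windows were called. In WT replicate 2 the count was 323 (3.50%, 3.14 to 3.89), against a background of 23.8%. In Shh-/- replicate 1 it was 206 (2.23%, 1.95 to 2.55), against 10.7%. In Shh-/- replicate 2 it was 589 (6.38%, 5.90 to 6.90), against 31.3%. The order of the libraries by lncRNA share was thus the order of the lengths of their lists. These intervals cover counting error alone and take windows as independent, although neighbouring windows can share a peak. The called windows rested on 868, 236, 149 and 436 different best peaks, so the intervals are too narrow. Counted by gene, 904, 255, 157 and 465 of the 8018 genes had a called window.

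The share of lncRNA windows called was 7.64% ± 5.85 (SD, n = 2) in WT and 4.31% ± 2.93 (SD, n = 2) in Shh-/-. The difference of 3.33 percentage points was within the spread between replicates (two-sided exact permutation test, p = 0.667, where 0.33 is the smallest p that 2 libraries against 2 allow). Without WT replicate 1 the difference was −0.807 points. At equal list size the libraries came close together. The WT libraries then had 171 (1.85%) and 150 (1.63%) called lncRNA windows, and the Shh-/- libraries 206 (2.23%) and 162 (1.76%). The backgrounds over all TSS windows at that size were 15.8%, 15.4%, 10.7% and 15.6%. The difference between the genotypes turned to −0.255 points, with 1.74% ± 0.161 (SD, n = 2) in WT and 1.99% ± 0.337 (SD, n = 2) in Shh-/- (two-sided exact permutation test, p = 0.667).

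**Figure D1:**
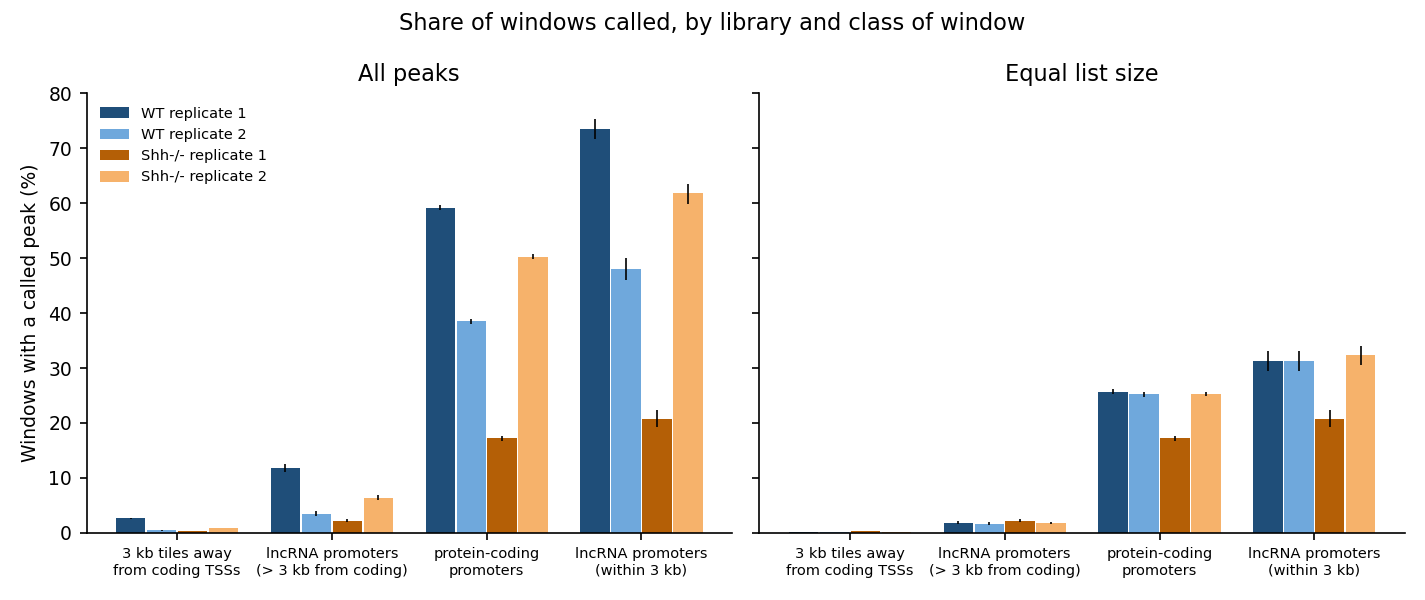
Share of windows with a called peak (%, bars with 95% Wilson intervals) for 4 classes of window in the 4 libraries, with all peaks on the left and at equal list size on the right. lncRNA promoters lie between 2.23% and 11.8% with all peaks, above the tiles and far below protein-coding promoters in each library.

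Protein-coding promoters were called much more often. Their share was 59.2% and 38.5% in the WT libraries and 17.2% and 50.3% in the Shh-/- libraries, which is 5.03 to 11.0 times the lncRNA share of the same library. The lncRNA share was lower in 4 of 4 libraries, with a mean difference of −35.3 points (two-sided exact sign-flip permutation test over 4 libraries, p = 0.13, adjusted p = 0.13 over 5 comparisons, which is the smallest p this design allows). At equal list size the coding share was 7.70 to 15.5 times the lncRNA share and the mean difference −21.5 points. lncRNA promoters within 3 kb of a coding TSS, which share their windows with coding promoters, were called at 73.6%, 48.0%, 20.8% and 61.8%.

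lncRNA promoters were nevertheless called more often than the rest of the genome away from coding TSSs. Of 817180 tiles of 3 kb that lie away from coding TSSs and lncRNA windows, 2.62% and 0.415% had a peak in the WT libraries, and 0.275% and 0.857% in the Shh-/- libraries. The lncRNA share was 4.50, 8.44, 8.10 and 7.44 times as high, and higher in 4 of 4 libraries by 4.93 points on average (exact sign-flip permutation test, p = 0.13, adjusted p = 0.13). With lists of equal size it was 17.7, 20.2, 8.10 and 16.0 times as high, and the mean difference was 1.72 points. The tiles can lie inside coding genes and were not matched to the lncRNA windows for distance from a coding TSS.

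Peaks at lncRNA promoters also ranked lower in their own lists. Ranks are given as a percentile of the list, where 0 is the highest score. The median percentile of the best peak at called lncRNA windows was 42.7, 51.0, 47.8 and 53.5 in WT replicates 1 and 2 and Shh-/- replicates 1 and 2. At called coding windows it was 17.2, 33.8, 37.1 and 30.1. The difference averaged 19.2 points in the same direction in 4 of 4 libraries (exact sign-flip permutation test, p = 0.13, adjusted p = 0.13). The difference averaged 5.44 points at equal list size. A minority of lncRNA promoters held strong peaks. In WT replicate 1, 118 of the called lncRNA windows (10.9%) had a peak in the top 10% of the list, against 32.1% of called coding windows. In the other libraries, in the same order, these shares were 11.1%, 10.2% and 8.66% for lncRNA windows and 16.0%, 15.9% and 18.7% for coding ones.

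Peaks at lncRNA promoters were centred close to the annotated start less often than those at coding genes, and in a minority of called windows. The summit was within 250 bp of the TSS in 40.8%, 49.8%, 39.8% and 48.4% of called lncRNA windows, and in 68.3%, 70.0%, 66.1% and 71.6% of called coding windows. The TSS itself was inside the peak in 42.5%, 46.7%, 35.4% and 51.3% of called lncRNA windows. Median peak widths were 451, 390.0, 408 and 498 bp at lncRNA promoters and 787, 519, 398 and 720.0 bp at coding promoters. Summits of Shh-/- replicate 1 were shifted upstream in both classes, with a median of −184 bp at lncRNA and −141 bp at coding windows, against −35.0 to −86.0 bp in the other libraries. Few of the lncRNA calls rested on a peak that also reached a coding promoter window, 7, 7, 4 and 5 windows in the 4 libraries.

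**Figure D2:**
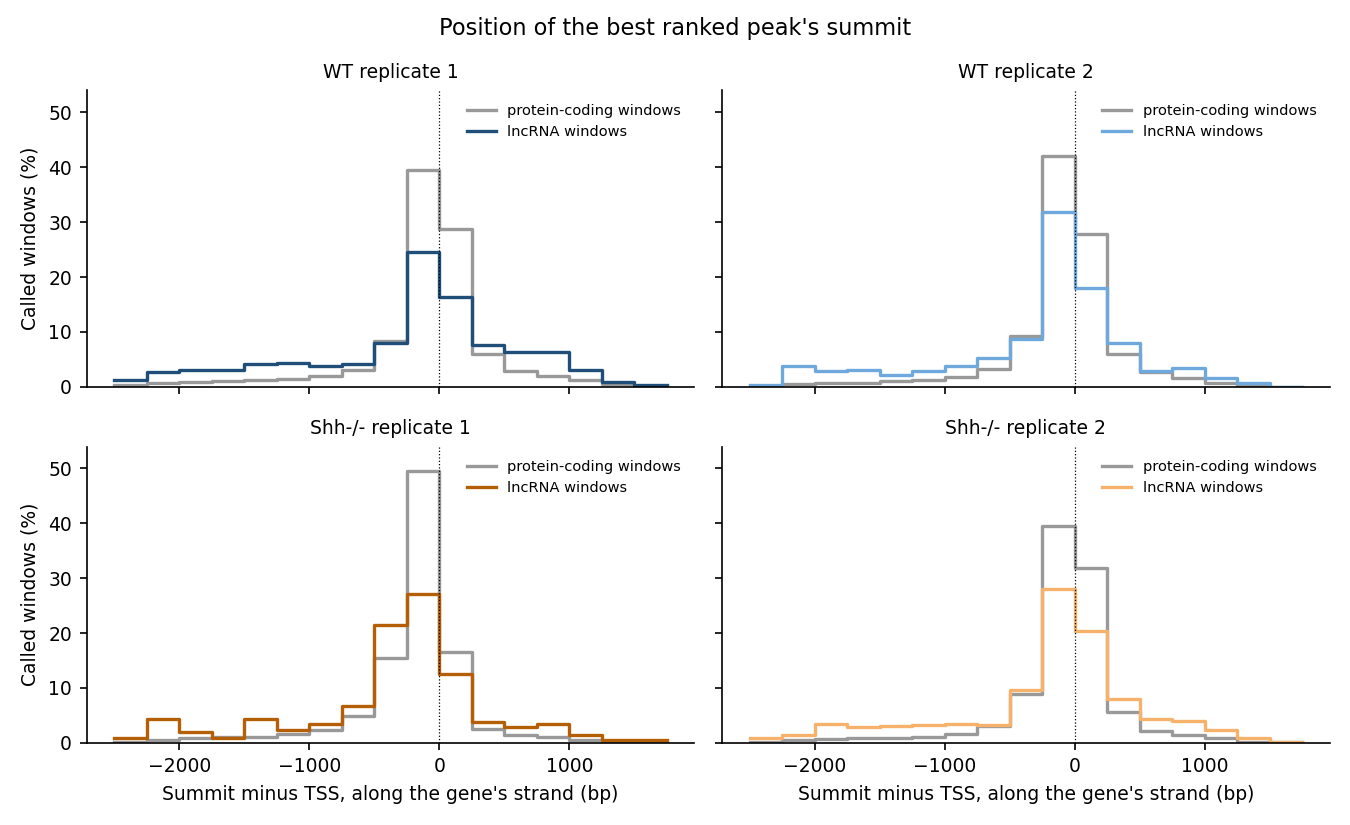
Position of the summit of the best ranked peak relative to the TSS (bp along the gene's strand, bins of 250 bp) as a percentage of called windows, 1 panel per library, with lncRNA windows in colour and protein-coding windows in grey. In each panel the lncRNA curve peaks in the same bin just upstream of the TSS, at 24.5% in WT replicate 1, and has more of its windows away from the start.

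Whether an lncRNA promoter was called varied with its base composition. A core was called CpG-rich when its 300 bp had a GC content of at least 50% and an observed to expected CpG ratio of at least 0.6. This held for 447 lncRNA windows (4.84%) and for 44.9% of coding windows. CpG-rich lncRNA promoters were called at 60.0%, 34.5%, 16.8% and 47.9%, and the other lncRNA promoters at 9.33%, 1.92%, 1.49% and 4.27%. The difference averaged 35.5 points and had the same direction in 4 of 4 libraries (exact sign-flip permutation test, p = 0.13, adjusted p = 0.13), and at equal list size it averaged 19 points. CpG-rich coding promoters were called at 93.2%, 68.0%, 30.7% and 85.7%, and other coding promoters at 31.5%, 14.5%, 6.18% and 21.4%. Within either class of base composition, lncRNA promoters were thus called less often than coding promoters in each of the 4 libraries.

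With all peaks, the share was lower at greater distance from coding genes. In WT replicate 1 it was 21.8% where the nearest coding TSS was 3 to 10 kb away, 14.4% at 10 to 30 kb, 13.1% at 30 to 100 kb and 5.78% beyond 100 kb. In Shh-/- replicate 1, the shortest list, the values were 3.65%, 2.54%, 2.31% and 1.51%. The order was the same in WT replicate 2 (6.66% down to 1.63%) and Shh-/- replicate 2 (10.8% down to 3.21%). At equal list size it was kept in both WT libraries but not in Shh-/- replicate 2, with 3.10%, 2.23%, 2.31% and 0.544%. Among the types, processed_transcript windows were called at 23.2%, 11.2%, 5.28% and 16.0%, and lincRNA windows at 9.74%, 2.77%, 1.98% and 5.44%. Antisense windows were called at 14.4%, 3.26%, 1.98% and 6.04%, and sense_intronic windows at 5.78%, 0.680%, 1.36% and 3.40%. These strata are descriptions and were not tested against each other.

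**Figure D3:**
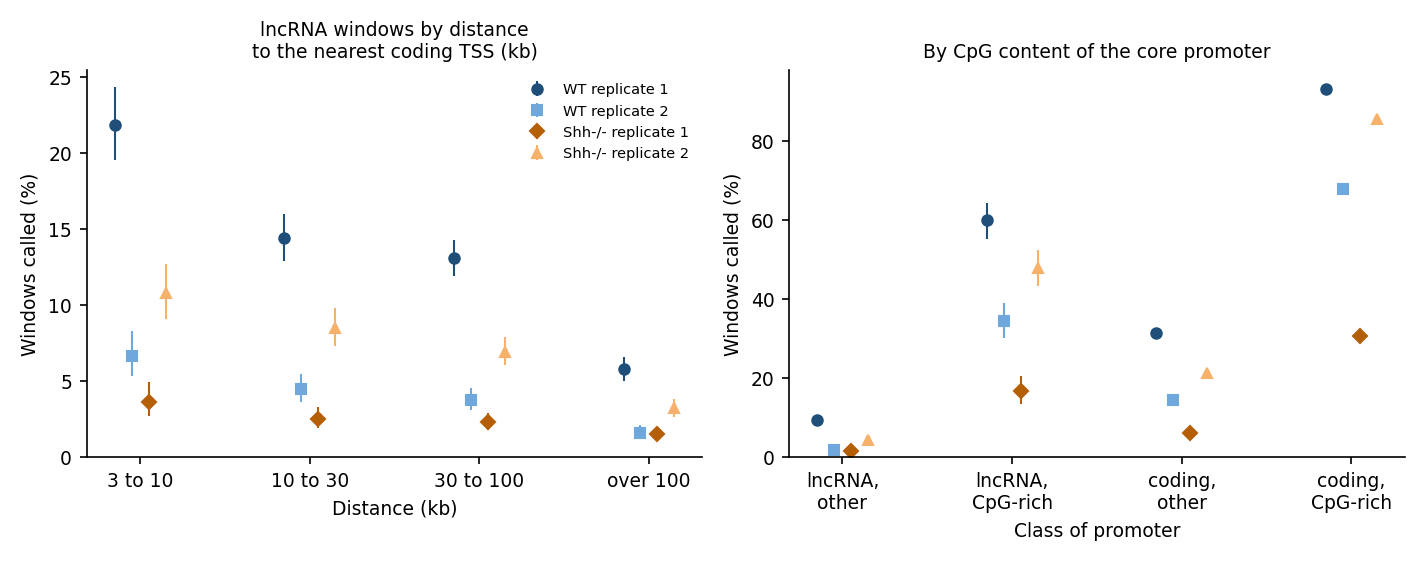
Share of windows called (%, points with 95% Wilson intervals) in each library, on the left for lncRNA windows by distance to the nearest coding TSS and on the right for lncRNA and coding windows by CpG class of the core promoter. With all peaks, the share is lower in each farther class of distance, and CpG-rich lncRNA promoters reach 60.0% in WT replicate 1 against 9.33% for the others.

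Short promoter motifs were counted in the same cores. A GC box, which Sp family factors bind, was present in 9.96% of all lncRNA cores, in 53.3% of the 120 windows called in all 4 libraries and in 6.91% of the windows called in none. It was present in 45.4% of coding cores and 29.0% of all TSS cores. The ETS motif CCGGAAGT was in 1.07% of lncRNA cores and 4.17% of those called in all 4, against 3.07% of all TSS cores, and the cAMP response element TGACGTCA in 0.899% and 3.33%, against 1.50%. A CCAAT box was in 39.3% of lncRNA cores and 46.7% of those called in all 4, against 37.3% of all TSS cores. For the TATA box these shares were 15.7%, 15.8% and 15.4%. The GLI consensus TGGGTGGTC was in 28 lncRNA cores (0.303%), against 0.231% of all TSS cores, and in 0 of the 120 windows called in all 4 libraries. All motifs were searched on both strands of the same 300 bp, and no test was made. The letters of the GC box, the ETS motif and the cAMP response element each hold a CG. CpG-rich cores made up 55.0% of the windows called in all 4 libraries and 2.12% of those called in none. The part of CpG content in the motif shares was not tested. The ETS and cAMP shares among windows called in all 4 rest on 5 and 4 windows.

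Of the 9228 lncRNA windows, 8015 (86.9%) were called in no library and 1213 in at least 1. Most of the latter, 650 windows, were called in a single library, and 532 of these in WT replicate 1, the longest list. Another 120 windows of 90 genes (1.3%) were called in all 4 libraries, against a background of 9.89% of all TSS windows. Without Shh-/- replicate 1, 255 windows were called in the remaining 3. These 120 had a median GC content of 56.0% and 55.0% of them were CpG-rich, while the windows called in no library had a median of 46.7% and 2.12% were CpG-rich. Repeats covered a median of 15.3% of the windows called in all 4 and 23.5% of those called in none. Windows called in more libraries also ranked higher. In WT replicate 1 the median percentile was 61.4 for windows called in that library alone and 6.15 for windows called in all 4.

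**Figure D4:**
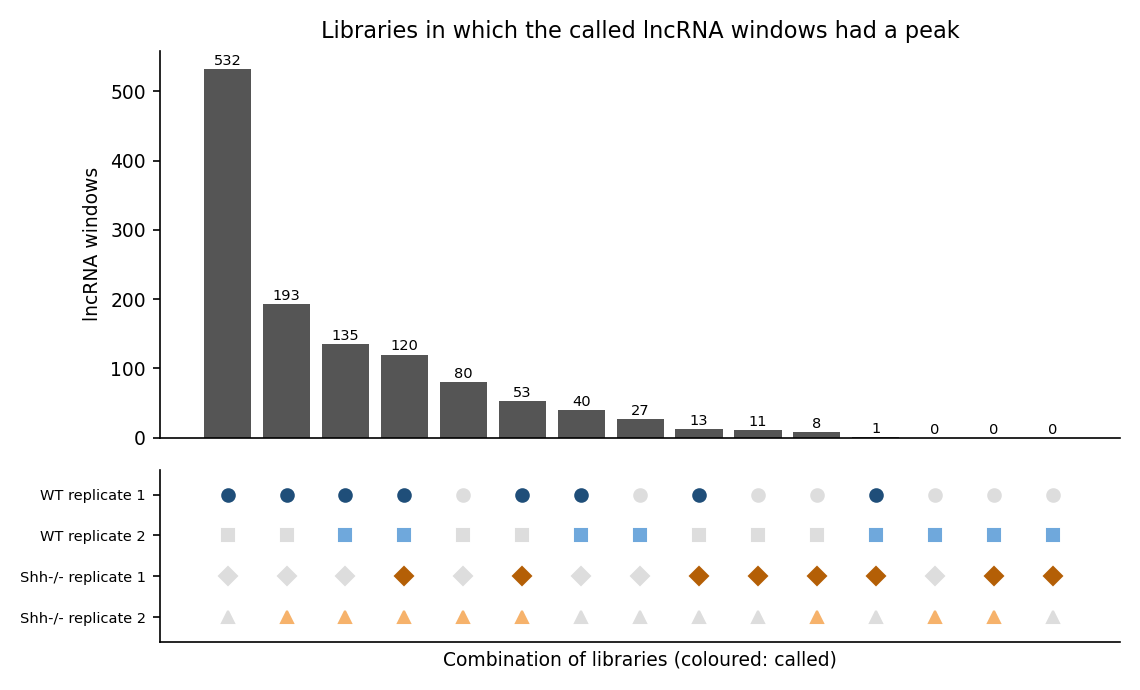
Number of lncRNA windows (bars) for each combination of the 4 libraries in which they were called (coloured marks below each bar). The 532 windows called in WT replicate 1 alone form the largest group, 120 windows were called in all 4, 40 in both WT libraries only and 8 in both Shh-/- libraries only.

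The 10 best ranked genes among those called in all 4 libraries began with a locus of ribosomal DNA. Gm26917, Gm42418 and AY036118 shared 1 peak per library, which in WT replicate 1 covered chr17:39842989-39848839, a stretch where the annotation also places a ribosomal RNA gene. It was the highest ranked peak of WT replicate 1 and the one ranked 2 in the other libraries. By this peak the 3 lncRNA genes cannot be told apart from the ribosomal RNA gene, which is present in many copies, so their ranks are uncertain. 4932412D23Rik came next, at ranks 25, 27, 16 and 18 in WT replicates 1 and 2 and Shh-/- replicates 1 and 2. Its start lies 32.1 kb from the nearest TSS of the transcription factor gene Zbtb20 in the basic annotation but 294 bp from a coding TSS of the comprehensive annotation. Zswim6 (ranks 173, 135, 190 and 160) is typed processed_transcript here but protein-coding in RefSeq.

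Mir22hg, the host of miR-22, had one of the strongest peaks that were centred on an lncRNA start. Its ranks were 346 (percentile 0.885) and 647 (5.40) in the WT libraries, against 162 (2.90) and 221 (1.20) in the Shh-/- libraries. The summits lay at −67, −62, −129 and −123 bp from the TSS. A coding transcript of the comprehensive annotation starts 176 bp away, which the basic set leaves out, and by this peak the starts cannot be told apart. The other genes of the best 10 were Gm10658, which lies 3.53 kb from Sin3a and 233 bp from a coding TSS of the comprehensive annotation, 1700028E10Rik, Gm20732 and Gm6410. Gm20732, which holds Mir30d, had percentiles of 0.542, 2.55, 8.43 and 1.85, and Gm6410 had 0.724, 3.05, 8.82 and 1.08. Of the 120 windows, 11 lay within 3 kb of a coding TSS of the comprehensive annotation.

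**Figure D5:**
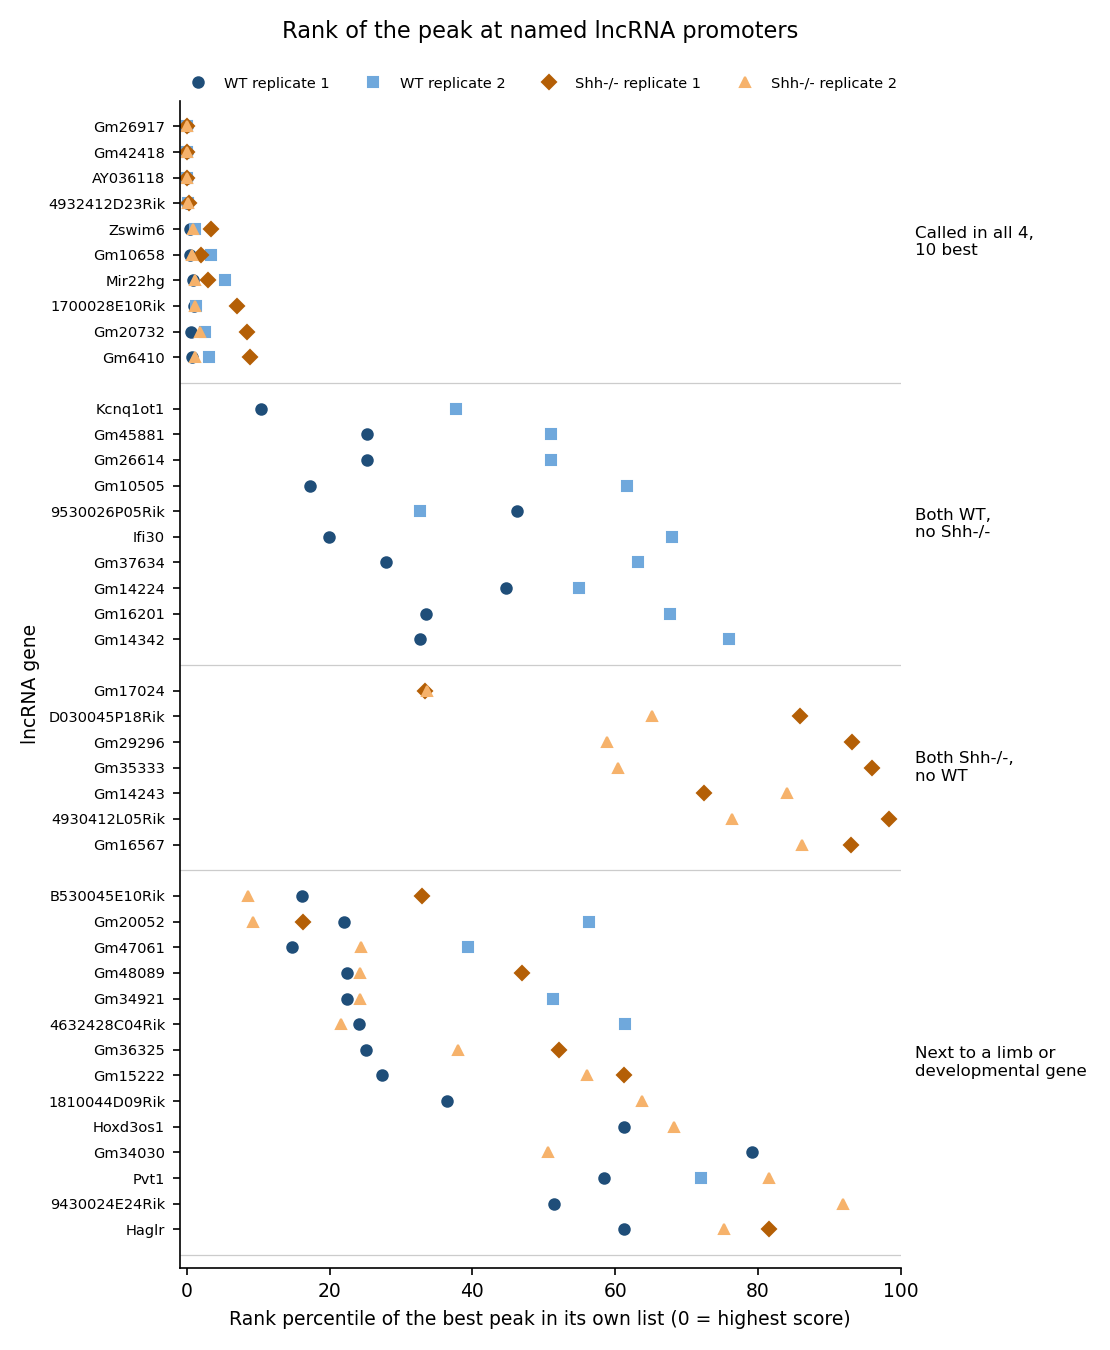
Rank percentile of the best peak (0 is the highest score of a list) at named lncRNA promoters in the 4 libraries, where a missing mark means not called. The 10 genes at the top sit below 9 in each library, while genes called in 1 genotype and genes next to developmental genes spread over most of the range.

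Promoters of listed small RNA precursors were called more often than those of lncRNA genes as a whole. Of 18 member genes on a list of snoRNA and microRNA hosts, 14 were called in at least 1 library (13, 10, 3 and 10 in the 4 libraries) and 3 in all 4, namely Mir22hg, Snhg8 and Snhg5. Of all 8018 lncRNA genes, 1005 were called in at least 1 library, and 11.3%, 3.18%, 1.96% and 5.80% in the 4 libraries. Snhg8 had percentiles of 0.786, 1.73, 21.1 and 2.78 and Snhg5 of 3.20, 23.1, 32.7 and 3.01, so that Shh-/- replicate 1 gave the lowest rank for both. Mir17hg, the precursor of the miR-17 to miR-92 cluster that acts in growth and skeletal patterning, was called in 3 libraries at percentiles of 3.88, 10.4 and 9.05, but not in Shh-/- replicate 1. Its summits lay about as far upstream as the window reaches, at −1993, −1912 and −2064 bp. Dleu2, the host of miR-15a and miR-16-1, was called in the same 3 libraries at 18.1, 60.6 and 19.1. Snhg15, Snhg6 and Snhg20 were called in these 3 libraries too, and Snhg12 in both WT libraries at percentiles of 75.7 and 88.4. Mir142hg, Mir670hg, Mir9-3hg and Mirt1 were called in 0 of 4.

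Counted by position and chosen after values had been seen, 99 lncRNA member genes hold an annotated microRNA. Of these 38 were called in at least 1 library, 14 in 3 or more and 6 in all 4. Over all 8018 lncRNA genes, 1005 were called in at least 1 library and 90 in all 4. The 6 hosts called in all 4 are Zswim6, Mir22hg, Gm20732, 6720427I07Rik, Gm17494 and Dnm3os. 6720427I07Rik holds the let-7 genes Mirlet7d, Mirlet7f-1 and Mirlet7a-1 and had percentiles of 2.90, 21.2, 20.3 and 2.50. Windows of microRNA-holding genes were called at 26.6%, 11.6%, 5.15% and 18.9%, beside 11.8%, 3.50%, 2.23% and 6.38% of all lncRNA windows. lncRNA genes with given names (no Gm, AC or Rik symbol), some hosts among them, had similar shares. Their windows were called at 25.7%, 10.2%, 4.86% and 17.6%, so the higher share was not particular to hosts. The 99 genes have 233 windows and all 8018 genes have 9228, so more windows per gene entered the counts of hosts. The mature microRNAs of the better known hosts are shown with the seed (bases 2 to 8) in capitals, since the seed sets which messages they pair with. The sequences and positions are those of RefSeq on GRCm38.p6, and each lies on the plus strand. No 2 of the 6 share a seed.
miR-22-5p (Mir22hg), chr11:75463734-75463755: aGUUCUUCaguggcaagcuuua
miR-22-3p (Mir22hg), chr11:75463772-75463793: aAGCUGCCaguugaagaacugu
miR-199a-5p (Dnm3os), chr1:162217844-162217866: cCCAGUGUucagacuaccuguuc
miR-199a-3p (Dnm3os), chr1:162217883-162217904: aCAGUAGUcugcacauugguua
miR-214-5p (Dnm3os), chr1:162223397-162223418: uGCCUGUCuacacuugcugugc
miR-214-3p (Dnm3os), chr1:162223438-162223459: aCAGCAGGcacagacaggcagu

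Dnm3os was the one gene called on a list of 9 member lncRNAs of developmental loci, beside 1005 of 8018 over all lncRNA genes, and it was called in all 4 libraries. It is transcribed opposite to an intron of Dnm3 in mesenchyme and its microRNAs act in skeletal growth. The percentiles were 12.5 and 21.8 in the WT libraries and 34.4 and 30.2 in the Shh-/- libraries, with summits from −16 to 112 bp from the start. Percentiles move with the length of a list, and at equal list size the gene was called in 4 of 4 libraries as well. Dlx1as, Dlx6os1, Fendrr, Hand2os1, Pantr1, Pantr2, Rmst and Sox2ot were called in 0 of 4.

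Of 5 member lncRNAs of the Hox clusters, 3 were called in at least 1 library, as were 1005 of all 8018 lncRNA genes. Haglr, at chr2:74748422-74762896 between the HoxD genes, was called in WT replicate 1 at percentile 61.2, in Shh-/- replicate 1 at 81.5 and in Shh-/- replicate 2 at 75.3. Hoxd3os1 was called in WT replicate 1 (61.2) and Shh-/- replicate 2 (68.2). Hoxb3os was called in WT replicate 1 alone (57.1). Hotair of the HoxC cluster and Hoxb5os were called in none. These were weak peaks, and at a score of at least 50 the counts of libraries were 0 for each of the 3 genes. Each call of Hoxd3os1 rested on a different peak, with summits 972 and 32 bp downstream of a start.

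The imprinted and X inactivation lncRNAs were called mainly in the longest list. Of 12 member genes, 9 and 2 were called in the WT libraries and 0 and 2 in the Shh-/- libraries, beside 11.3%, 3.18%, 1.96% and 5.80% of all lncRNA genes. Kcnq1ot1, which is made from the paternal allele and silences its neighbours, was called in WT replicate 1 (percentile 10.4) and WT replicate 2 (37.7). Peg13 was called in 3 libraries (15.6, 72.0 and 36.0, not in Shh-/- replicate 1). Ftx, an activator of Xist, was called in WT replicate 1 (7.37) and Shh-/- replicate 2 (42.2). Jpx, Airn, Meg3, H19, Tsix and Mirg were called in WT replicate 1 alone, at percentiles from 20.5 for Jpx to 94.5 for Mirg. Xist, Rian and Snhg14 were called in 0 of 4.

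Of 8 member lncRNAs that are abundant or act in nuclear bodies, 7 were called in at least 1 library, beside the 1005 of 8018 over all lncRNA genes. Malat1, a very abundant RNA of nuclear speckles, was called in all 4 libraries at 8.43, 35.1, 89.7 and 16.3, with summits upstream of the annotated start, at −1031, −870, −680 and −1014 bp. Neat1, the scaffold of paraspeckles, was called in WT replicate 1 (17.3) and Shh-/- replicate 2 (23.2). Firre was called in both WT libraries (25.9 and 85.6), as was Lncpint (46.2 and 97.7), although its calls rested on peaks about as far apart as the upstream part of a window, with summits at −2119 and 38 bp. Pvt1 and Epb41l4aos were called in 3 libraries, Miat in WT replicate 1 alone, and Trp53cor1 in none.

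lncRNA promoters next to limb or developmental genes were compared with the rest. For 226 windows of 186 genes the nearest coding TSS belonged to 1 of 228 listed genes and lay within 100 kb, with 105 different neighbours. They were called at 19.5%, 3.54%, 3.54% and 10.2% (44, 8, 8 and 23 windows), and the other lncRNA windows at 11.6%, 3.50%, 2.2% and 6.29%. The difference averaged 3.29 points (exact sign-flip permutation test over 4 libraries, p = 0.13, adjusted p = 0.13). The difference by library was 7.88, 0.0406, 1.34 and 3.89 points. Without WT replicate 1 the mean was 1.76 points, and at equal list size it came to 0.0143 points (p = 1.0, exact permutation). The windows next to developmental genes also lay closer to a coding TSS, at a median of 32.9 kb against 58.6 kb, and were more often CpG-rich, at 8.85% against 4.74%. The part of distance and CpG content in the difference was not tested. Among windows that were not CpG-rich the shares were 15.5%, 1.94%, 3.40% and 7.77% next to developmental genes and 9.18%, 1.92%, 1.45% and 4.19% elsewhere.

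The genes Sox2 (13 windows), Dusp6 (9), Nr2f2 (8), Sox4 (7) and Hand2 (6) had the most lncRNA neighbours. None of the 13 windows next to Sox2 was called, which is near the 86.9% of all lncRNA windows that were called in no library. Around Dusp6, which encodes a phosphatase that dampens FGF signaling, 4 windows of 3 genes were called. B530045E10Rik, 35.7 kb from Dusp6, was called in WT replicate 1 (percentile 16.1), Shh-/- replicate 1 (33.0) and Shh-/- replicate 2 (8.51). Gm48089 (4.67 kb) and Gm34921 (7.21 kb) shared a peak in WT replicate 1 and in Shh-/- replicate 2, at 22.4 and 24.2. The summit of that peak lay outside both windows in these libraries, and neither gene was called in WT replicate 1 or Shh-/- replicate 2 when the summit had to fall inside the window. Gm48089 was also called in Shh-/- replicate 1, again with a summit outside its window, 1070 bp downstream of the start. A coding TSS of the comprehensive annotation lies 2255 bp from the start of Gm48089.

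Gm20052, 69.2 kb from the homeobox gene Msx1 of limb mesenchyme, was the one lncRNA next to a listed gene that was called in all 4 libraries. Its percentiles were 22.0 and 56.4 in WT and 16.3 and 9.25 in Shh-/-. Of the 4 summits, 3 fell within 31 bp of the start, while that of WT replicate 2 lay at −1149 bp in another peak, and the percentiles come from lists of unequal length. Gm36325, 87.5 kb from Irx3, was called in WT replicate 1 (25.1), Shh-/- replicate 1 (52.1) and Shh-/- replicate 2 (38.0). Gm15222, 3.03 kb from the BMP ligand gene Bmp4, was called in the same 3 libraries (27.4, 61.2 and 56.0), but a coding TSS of the comprehensive annotation lies 215 bp away. Gm47061, 5.83 kb from Tfap2a, was called in both WT libraries (14.8 and 39.4) and Shh-/- replicate 2 (24.4). 4632428C04Rik, 56.7 kb from the Notch effector Hes1, was called in those libraries too (24.1, 61.4 and 21.6), as was Pvt1, 50.6 kb from Myc (58.5, 72.0 and 81.5).

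Other calls lay near genes of the limb axes. Gm34030, 13.4 kb from Hand2, a transcription factor of the posterior limb bud that acts upstream of Shh, was called in WT replicate 1 (79.2) and Shh-/- replicate 2 (50.6). 5033428I22Rik, at 11.1 and 11.5 kb from Hand2, was called in WT replicate 1 alone. 1810044D09Rik, 29.6 kb from the dorsal ectoderm ligand gene Wnt7a, was called in WT replicate 1 (36.5) and Shh-/- replicate 2 (63.8), and 9430024E24Rik, 78.4 kb from the dorsal mesenchyme gene Lmx1b, in the same libraries (51.4 and 91.9), there at different peaks of its window. Single calls in WT replicate 1 included Tbx3os1 and Gm16063 near Tbx3, 2 genes near Pitx1 and Gm30655, 9.32 kb from the SHH receptor gene Ptch1. Of 3 lncRNA windows within 1 Mb of Shh, among them that of 9530036O11Rik at 8.98 kb, 0 were called. The neighbours' own promoters were called for 88.5%, 100.0%, 40.0% and 78.6% of the genes next to a called lncRNA window in the 4 libraries, with 26, 6, 5 and 14 such genes. Next to an uncalled window the shares were 88.3%, 58.7%, 28.6% and 76.0%.

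Promoters called in both libraries of 1 genotype and none of the other were few. There were 40 such lncRNA windows in WT (0.433%), of 30 genes, against a background of 1.04% of all TSS windows. There were 8 in Shh-/- (0.0867%), of 7 genes, against 0.0155% of all TSS windows. The latter background is 12 windows in all, 3 of them protein-coding. Of the windows called in Shh-/- replicate 1, 90.8% of lncRNA and 99.7% of coding ones were also called in WT replicate 1. The peaks ranked low. The median percentiles of the 40 WT windows were 46.2 and 85.3 in WT replicates 1 and 2, and those of the 8 Shh-/- windows were 89.5 and 65.2 in Shh-/- replicates 1 and 2. At equal list size the counts were 14 and 12, and of the 40 WT windows 1 was among the 14, that of Kcnq1ot1, while of the 8 Shh-/- windows 0 were among the 12.

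Kcnq1ot1 had the best mean percentile of the WT set. Its start is at chr7:143296549 on the minus strand, inside Kcnq1 on the opposite strand, and its peak had ranks of 4077 and 4510 in WT replicates 1 and 2, with summits at −24 and −65 bp. The core sequence shown above carries 3 CCAAT boxes. Gm45881 and Gm26614 are divergent neighbours that share 1 peak (percentiles 25.2 and 51.0). Gm10505 (17.3 and 61.6), 9530026P05Rik (46.3 and 32.6, 3.16 kb from Adamts9), Gm37634 (27.9 and 63.2), Gm14224 (44.7 and 55.0), Gm16201 (33.5 and 67.7) and Gm14342 (32.7 and 75.9) followed, with Ifi30 (19.9 and 68.0), which RefSeq types as protein-coding. The calls of Gm14224 rested on different peaks, with summits 1031 and 310 bp downstream of the start. Both summits of 9530026P05Rik lay outside its window, 1544 and 1237 bp downstream of the start. None of the 40 windows was next to a listed limb or developmental gene, as were 2.45% of all lncRNA windows.

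Gm17024 led the Shh-/- set and was the one gene of the 7 with both percentiles under 50. It is a sense_intronic gene 6.44 kb from Ifrd1, and its peaks stood at percentile 33.3 (score 109) in Shh-/- replicate 1 and 33.6 (score 134) in Shh-/- replicate 2. The summits lay 564 and 435 bp downstream of the start. No peak was called there in either WT library, including the 39080 peaks of WT replicate 1. At equal list size its peak stayed in the list of Shh-/- replicate 1 alone. The other genes were D030045P18Rik (85.9 and 65.2), Gm29296 (93.2 and 58.8), Gm35333 (95.9 and 60.4), Gm14243 (72.4 and 84.0), 4930412L05Rik (98.4 and 76.3) and Gm16567 (93.0 and 86.2). The calls of Gm16567 rested on different peaks, with summits at −1992 and 21 bp from the start. The equal-size lists put other genes in the Shh-/- class, among them Gm20052 next to Msx1 and B530045E10Rik and Gm48089 next to Dusp6, which WT replicate 1 also called in its full list. These counts have no test, and they moved with the libraries that entered. With 1 library left out and the call asked of the remaining ones, the WT count of 40 became 67 without WT replicate 1, 572 without WT replicate 2 and 175 without Shh-/- replicate 2. The Shh-/- count of 8 became 61 without WT replicate 1, 88 without Shh-/- replicate 1 and 19 without Shh-/- replicate 2.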

How the data were processed

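ATAC-seq reads were, per the study's methods, paired-end and aligned to mm10, and peaks were called in each library separately with a q-value limit of 0.05. The submitters' processing notes name Bowtie2 2.2.5 and MACS2 2.1.0. The authors deposited 1 peak list per library, with a score per peak that was used for ranking. By the format of the caller it is 10 times −log10 q, but the files do not state its scale. The other deposited columns for fold, p and q hold 0 in every row, and the summit column holds an offset in bp. No read counts were analysed here, so the depth of each library is unknown and the study's own count test was not repeated. The length of a list may move with depth, which was not tested.

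A window was called when a peak overlapped it by at least 1 bp. TSSs came from GENCODE M21. Percentiles used all peaks of a list, with ties ordered by position. Shares were compared between genotypes with exact permutation tests and within libraries with exact sign-flip tests, with Benjamini-Hochberg adjustment over the 5 comparisons (python 3.11.15, scipy 1.17.1). The code was tested on simulated data. No window had to pass a filter on low values.

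The windows and gene lists were chosen with earlier results of these data known. Genes were named when they were called members of 5 lncRNA lists, the 10 best by mean percentile among genes called in all 4 libraries, up to 10 in each direction called in both libraries of 1 genotype only, and up to 20 next to listed developmental genes with calls in 2 or more libraries. Single calls beside developmental genes, genes of the equal-size lists and genes that hold microRNAs were named after their values were seen. RefSeq lists 47.2% of the windows' symbols.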

Additional observations from a re-analysis of the deposited data

How the results depend on the processing

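Of 105 recomputed values over 16 settings, 2 reversed and 12 counts moved by over 1.5 times. No test here could reach p of 0.05 under any setting, so the other 91 show a kept direction, or a count within 1.5 times, and nothing on significance. The genotype difference in the share of lncRNA windows called (3.33 points) reversed to −0.255 at equal list size, and it ran from −0.807 to 7.47 with 1 library left out. The 40 windows called in both WT libraries only became 14 at equal list size, 10 at a score of at least 50, 17 with windows of 500 bp either side and 24 at more than 10 kb from coding TSSs, and 41 to 572 with 1 library left out. The 8 windows of the Shh-/- class became 3 at a score of at least 50 and 8 to 88 with 1 library left out, and the 120 windows called in all 4 became 120 to 255. The cause was not tested. Sizes also moved by over 1.5 times where the direction of the mean did not. At equal list size the difference from coding promoters was −21.5 points, that from the tiles 1.72, the rank difference 5.44 and the CpG difference 19. The developmental-neighbour difference was then 0.0143, negative in both WT libraries and positive in both Shh-/- libraries. At a score of at least 50 the genotype, tile, rank and neighbour differences were 0.802, 3.07, 12.6 and 1.24, and with neighbours within 500 kb the last was 1.51. Lists of 5589 to 39080 peaks limit what these counts can show.

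The replicate numbers name the libraries and come from no stated pairing. With the replicate block the genotype difference was 3.33 points (exact permutation, p = 1.0), with 9.55 points for the replicates numbered 1 and −2.88 for those numbered 2. At equal list size it was −0.255 points (exact permutation, p = 0.500).

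2 alternatives were chosen after seeing the data. With distances set by the comprehensive annotation the genotype difference was 3.05 points, the difference from coding promoters −35.6 points, and 109 windows were called in all 4 libraries. Without symbols that RefSeq types as coding, 115 were. Of 70 named genes, the number of libraries with a call stayed the same for 16 at equal list size, 29 at a score of at least 50, 61 with the summit inside the window and 54 with windows of 500 bp either side.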

Other observations

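lncRNA genes with given names were called more often than those with clone or catalogue names. Windows of genes whose symbols start with Gm or AC were called at 9.84%, 2.39%, 1.53% and 4.72% in WT replicates 1 and 2 and Shh-/- replicates 1 and 2 (6741 windows). Windows of genes with Rik symbols were called at 14.1%, 5.25%, 3.89% and 8.60% (1849 windows), and those of the remaining 638 windows at 25.7%, 10.2%, 4.86% and 17.6%. Names are given partly for how well a transcript is known, and no test was made.

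Some hosts of other microRNA families were called in 2 or 3 libraries. A330023F24Rik, which holds Mir29b-2 and Mir29c, had percentiles of 17.4, 21.8 and 19.4 in WT replicate 1, WT replicate 2 and Shh-/- replicate 2. 1700016P03Rik, which holds Mir212 and Mir132, had 11.4, 26.3 and 27.7. Gm4258, which holds Mir181a-1 and Mir181b-1, was called in WT replicate 1 (35.2) and Shh-/- replicate 2 (74.7).

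The share of lncRNA windows called differed with the position of the start relative to other genes, and no test was made. Intergenic windows (6903) were called at 11.2%, 3.80%, 2.49% and 6.81% in the same order of libraries. Windows inside a gene on the opposite strand (1885) were called at 14.4%, 2.92%, 1.54% and 5.57%, and windows inside a gene on the same strand (440) at 9.55%, 1.36%, 1.14% and 3.18%. In WT replicate 1 the opposite-strand windows had the highest share of the 3 classes, and in the other libraries the intergenic ones did. At equal list size the intergenic windows had the highest share in WT replicate 1 too. The shares there were 2.13% for intergenic, 1.17% for opposite-strand and 0.455% for same-strand windows.

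Recall between libraries was lower at lncRNA than at coding promoters. Of lncRNA windows called in WT replicate 2, 91.6% were also called in WT replicate 1 and 78.9% in Shh-/- replicate 2, against 98.7% and 95.2% of coding windows. In the opposite direction, 27.2% of the lncRNA windows of WT replicate 1 were called in WT replicate 2, against 64.2% of coding windows. For windows called in any 1 of the other libraries, the gap in points was smallest for recall in Shh-/- replicate 1, the shortest list. Recall there was 37.5% against 41.8% from WT replicate 2 and 30.7% against 33.9% from Shh-/- replicate 2. From WT replicate 1 it was 17.2% against 29.0%. The part of the lower ranks of lncRNA peaks in these values was not tested.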
